A study of Mus musculus with 6 samples.

Results

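The S100 calcium-binding proteins were followed in bulk RNA sequencing of mouse CD4+ T cells exposed in culture to neutrophil extracellular traps (NETs) or to vehicle. The group holds 10 genes of the 54532 in the count table, taken by gene name: S100a1, S100a3, S100a4, S100a6, S100a8, S100a9, S100a10, S100a11, S100a13 and S100pbp. S100a9 was chosen by its raw reads per library, which occurred with NETs only, and S100a8 was set beside it as its partner, so their difference between the groups is given as a description with no test. Naive CD4+ T cells were taken from the spleen of C57BL/6 mice and all 6 cultures received CD3/CD28 beads, IL-2 and blocking antibodies to IFNγ and IL-4 for 72 h. There were 3 libraries with NETs and 3 with vehicle; the sources used here do not give the source and dose of the NETs, the age of the mice or the number of animals. The labels do not say whether replicates came from separate animals or cultures. The p-values therefore reflect only the spread among these samples, which may be technical.

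S100 proteins are small proteins built around a pair of EF-hand loops, which change shape when they bind calcium and then grip a target protein. Inside cells they act on annexins, myosin and the cytoskeleton, and some are also released and act through the receptors TLR4 and RAGE. In T cells, S100a4, S100a6, S100a10 and S100a11 are best known as transcripts of activated, memory and migrating cells. S100a8 and S100a9 together form calprotectin, a metal-binding complex that fills the cytosol of neutrophils and is also a known protein of NETs. S100pbp encodes a protein that binds human S100P and is not an S100 protein itself.

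The mRNA levels of the members lay far apart. Genes were compared on the deposited FPKM scale (reads scaled by gene length and library size), so their order rests on its gene lengths. Worked back from the reads, these were 591, 579 and 1982 bases for S100a10, S100a6 and S100pbp. Their exonic bases in GENCODE M21 were 1212, 1367 and 9448. For S100a11 and S100a13 the lengths matched, at 511 and 715. S100a10 stood first at 463 ± 23.5 FPKM with vehicle and 471 ± 34.3 with NETs (SD, n = 3 each). S100a10 encodes an S100 protein that does not need calcium and binds annexin A2 at the cell membrane. It ranked at 190 of the 54532 genes and lay 6.82 times above the next member by the mean of the 6 libraries. S100a13, S100a11 and S100pbp followed at means of 68.5, 68.4 and 55.0 FPKM, then S100a6 at 29.0 and S100a1 at 5.79. S100a9 (1.10), S100a8 (0.560), S100a3 (0.507) and S100a4 (0.229) had the lowest mean FPKM. S100a13 and S100a11 had nearly the same mean over the 6 libraries. S100a13 was the higher in 4 of 6, all NETs libraries and vehicle replicate 2. No order could be read among the lowest 4, which changed places between libraries. In each other step of this order the upper gene was the higher in 6 of 6 libraries.

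**Figure D1:**
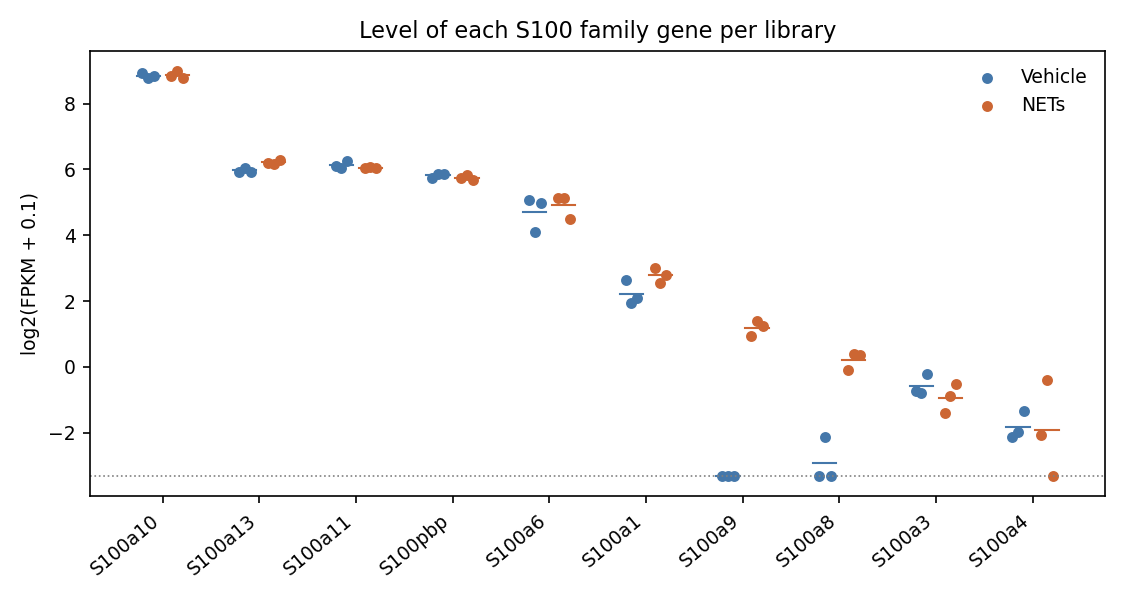
Level of each member in each library, as log2(FPKM + 0.1), with blue points for the 3 vehicle and orange points for the 3 NETs libraries; short lines mark group means on this scale and the dotted line marks 0 FPKM. S100a10 sits highest in every library, and S100a9 lies on the dotted line in all 3 vehicle libraries only.

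The 9 S100 genes together, without S100pbp, took between 0.0355% and 0.0414% of all reads in a library. S100a10 alone made up 70.5% to 73.7% of those reads. The groups overlapped on both measures: the share of all reads was 0.0391%, 0.0355% and 0.0375% with vehicle (replicates 1 to 3) and 0.0386%, 0.0414% and 0.0371% with NETs.

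Of the 10 members, 9 lie on chromosome 3 between 90511034 and 93564643 (coordinates of the deposited table, which are those of build GRCm38), and S100pbp lies on chromosome 4. All 10 had the same coordinates in the GENCODE M21 annotation of GRCm38. S100a8 (ENSMUSG00000056054; chr3:90668978-90670035, plus strand) and S100a9 (ENSMUSG00000056071; chr3:90692632-90695721, minus strand) lie 22596 bases apart. S100a1 (ENSMUSG00000044080; chr3:90511034-90514392, minus strand) and S100a13 (ENSMUSG00000042312; chr3:90514435-90524581, plus strand) point away from each other with 42 bases between them. The sequences below show this gap and the promoter windows of S100a9 and S100a8, the genes read almost only with NETs, of S100a4, the member read least, and of S100a11, one of the abundant members. They are RefSeq sequences of GRCm38.p6, 5′ to 3′, covering 250 bases before the RefSeq start, and for S100a9 also 50 bases after it. Capitals mark TATAAA, the core of a TATA box, and GGGCGG, a GC box.
S100a9 (chr3:90695672-90695971, minus strand): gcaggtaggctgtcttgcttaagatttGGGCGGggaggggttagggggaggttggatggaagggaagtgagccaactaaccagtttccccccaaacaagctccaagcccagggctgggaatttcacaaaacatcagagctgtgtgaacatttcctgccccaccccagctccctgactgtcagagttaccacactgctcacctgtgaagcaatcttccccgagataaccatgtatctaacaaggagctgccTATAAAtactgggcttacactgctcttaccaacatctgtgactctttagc
S100a8 (chr3:90668821-90669070, plus strand): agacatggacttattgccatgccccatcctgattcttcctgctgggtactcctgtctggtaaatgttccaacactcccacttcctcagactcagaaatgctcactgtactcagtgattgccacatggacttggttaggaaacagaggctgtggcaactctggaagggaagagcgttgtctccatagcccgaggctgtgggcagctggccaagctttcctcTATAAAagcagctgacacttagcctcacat
S100a4 (chr3:90603520-90603769, plus strand): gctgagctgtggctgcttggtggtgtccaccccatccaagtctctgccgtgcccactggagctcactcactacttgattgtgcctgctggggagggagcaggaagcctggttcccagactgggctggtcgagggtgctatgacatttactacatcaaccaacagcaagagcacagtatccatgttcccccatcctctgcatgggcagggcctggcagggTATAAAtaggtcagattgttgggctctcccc
S100a11 (chr3:93520246-93520495, plus strand): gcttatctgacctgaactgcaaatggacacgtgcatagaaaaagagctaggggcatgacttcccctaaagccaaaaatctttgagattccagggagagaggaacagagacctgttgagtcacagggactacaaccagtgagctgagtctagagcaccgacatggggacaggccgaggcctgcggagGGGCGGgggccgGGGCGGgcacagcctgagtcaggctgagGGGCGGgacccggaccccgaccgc
S100a1 to S100a13 gap (chr3:90514393-90514434, plus strand): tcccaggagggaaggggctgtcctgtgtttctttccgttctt

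Promoter windows of 300 bases were found for 9 of the 10 members. Both motifs were searched on both strands, and they do not overlap each other in the sequences shown. TATAAA occurred in the windows of S100a9, S100a8 and S100a4 and in 1 of 4 windows of S100a3, all at 1 copy. It began at position −30 from the RefSeq start in S100a8, −31 in S100a4 and −52 in S100a3. In S100a9 it began at position 0, the RefSeq start itself. No window of S100a1, S100a6, S100a11, S100a13 and S100pbp held it, against 13.6% of all 32851 RefSeq windows that do. GGGCGG, which 35.7% of all windows hold, occurred 3 times in the window of S100a11 and 6 times in each of 2 windows of S100pbp, and once in that of S100a9 and in 1 of S100a3. GC content was 61.7% for S100a11, 61.0% for the little-read S100a1, 59.3% for S100a13, 55.3% for S100a4, 51.3% for S100a9 and 49.3% for S100a6, with a median of 52.7% over all windows. These matches describe the windows only.

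The calprotectin genes were among the 4 members with the lowest mean level. S100a9 had 0 reads in each of the 3 vehicle libraries and 16, 24 and 20 reads in NETs replicates 1 to 3. S100a8 had 0, 1 and 0 reads with vehicle (replicates 1 to 3) and 7, 11 and 10 reads with NETs. Every NETs library lay above every vehicle library for both genes, which for S100a9 follows from its choice. Of all genes tested, 7.68% did so. Library totals were 15657622 to 18655997 reads. S100a9 averaged 1.13 ± 0.189 CPM (reads scaled to the library total) with NETs (SD, n = 3), and its 60 reads were at least 19.1-fold above the floor of 3 counts set over the whole vehicle group. Without vehicle replicate 1 that bound was 12.04-fold, since the floor then rests on fewer reads. For S100a8, 28 reads against 1 read gave a ratio of 26.8 (exact 95% interval 4.43 to 1095, counting error only). Within the NETs libraries the FPKM of S100a8 was 0.458, 0.480 and 0.523 times that of S100a9.

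Set against the abundant members, these levels were small. S100a9 with NETs reached 2.20 ± 0.366 FPKM, against 471 ± 34.3 for S100a10, 66.6 ± 1.15 for S100a11 and 30.7 ± 7.25 for S100a6 in the same libraries. Of the 24780 genes with any read, 58 (0.234%) had reads in each NETs library and none with vehicle, and 77 (0.311%) had the reverse pattern. S100a9 is 1 of the 58 by its choice, so nothing is read from its place among them. The others with most reads were Ttc30a2 with 21 reads, Gm47062 with 19, and Gm26947, Snord49b and Stra6l with 18 each. S100a8, with 1 vehicle read, does not enter this count.

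**Figure D2:**
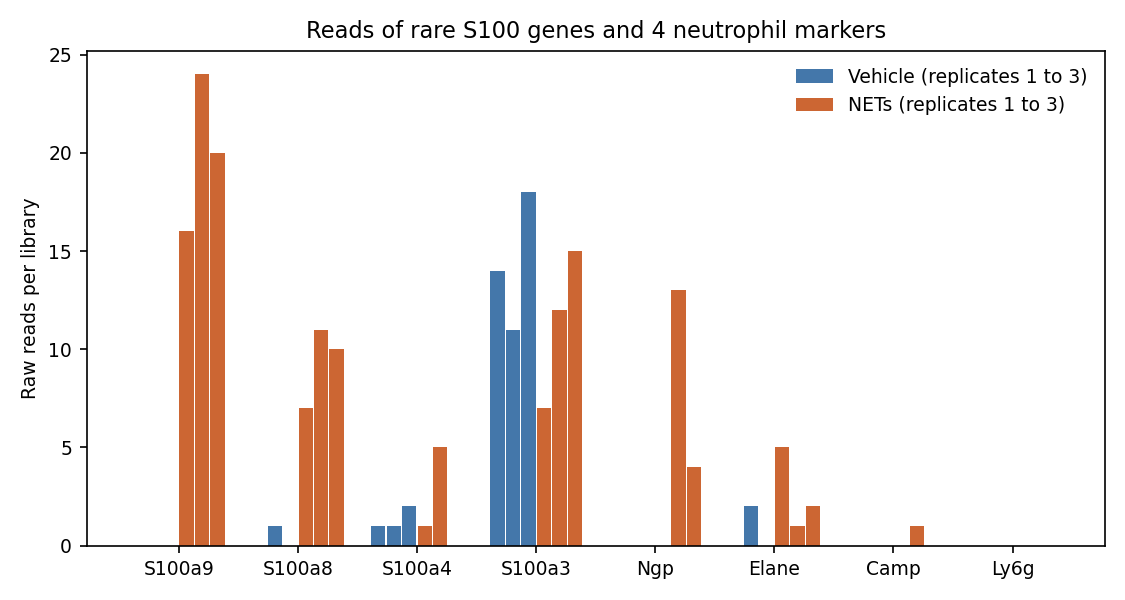
Raw reads per library of the 4 rarest members and of 4 neutrophil markers, with blue bars for vehicle and orange bars for NETs replicates 1 to 3. S100a9 and S100a8 rise above 5 reads in every NETs library and stay at 0 or 1 with vehicle, while S100a3 and S100a4 overlap and Ly6g has no read.

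Markers of neutrophils did not all follow calprotectin. Of 30 neutrophil markers, 17, 17 and 18 had a read with vehicle (replicates 1 to 3) and 17, 24 and 21 with NETs. Their summed level was 18.3 to 28.2 CPM with vehicle and 18.8 to 26.1 CPM with NETs, mostly from Pglyrp1, Padi4 and Itgam. The neutrophil surface marker Ly6g and also Stfa1, Stfa2l1 and BC100530 had no read in any library. Among granule genes, Ngp had 0, 13 and 4 reads in NETs replicates 1 to 3 and none with vehicle, the elastase gene Elane had 5, 1 and 2 against 0, 2 and 0, and Camp had 1 read in all. Mpo and Lcn2 were higher in total with NETs, at 107 and 36 reads against 81 and 25 with vehicle, though their libraries overlapped. Wfdc21, Retnlg and Stfa3, like Ngp and Camp, had reads with NETs only, at 5, 2 and 2 in total, with 0 in NETs replicate 1. Clec4d, Fpr1 and Chil3 had 48, 14 and 6 reads with NETs against 30, 7 and 2 with vehicle, and their libraries overlapped. Some others ran level or the other way. Prtn3, Ltf, Mmp8 and Ctsg had 27, 23, 13 and 16 reads with vehicle and 23, 19, 8 and 16 with NETs. Cd177 and Mcemp1 had 17 and 11 with vehicle and 13 and 7 with NETs. The whole list had 1238 reads in each group. Of the 8 neutrophil markers tested, 0 passed the adjusted threshold by edgeR. At an unadjusted p under 0.05, 0 were higher and 2 lower, where 6.72% and 6.06% of all genes were. Those were Il1b, with 22, 28 and 22 reads with vehicle and 3, 13 and 6 with NETs, and Anxa3, with 22, 13 and 21 against 7, 10 and 5. Both lay below vehicle in all NETs libraries, as in 9.04% of all genes tested. The genes of these sentences were named after their values were seen. The 17 monocyte and macrophage markers summed to 142 to 159 CPM with vehicle and 149 to 173 with NETs, led by Ctss, Lyz2 and Cd68. Of the 12 tested, 0 passed the adjusted threshold by edgeR. At an unadjusted p under 0.05, 2 were higher and 0 lower, where 6.72% and 6.06% of all genes were. Their median log2 fold change was 0.25, with 10 above and 2 below 0. Within that list, Lyz2, which encodes lysozyme, had a log2 fold change at 0.63 (SE 0.16, adjusted p by edgeR = 0.223). Its NETs libraries all lay above its vehicle libraries, as in 7.68% of all genes tested. Tyrobp, a myeloid adaptor singled out after its values were seen, had 6, 3 and 10 reads with vehicle and 21, 23 and 26 with NETs. Its NETs libraries too lay above its vehicle libraries, as in 7.68% of all genes tested. Other genes of the list ran level or lower. Csf1r and Ccr2 had 55 and 44 reads with vehicle and 58 and 46 with NETs, and Vcan had 49 with vehicle and 36 with NETs. The part of other cells in the calprotectin reads was not tested. In bulk RNA, fewer cells of a type and less RNA per cell cannot be told apart, nor can RNA of the cultured cells and RNA that came with the NETs.

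S100a4, which encodes a binder of non-muscle myosin IIA, was nearly absent from the table. It had 1, 1 and 2 reads with vehicle (replicates 1 to 3) and 1, 5 and 0 reads with NETs, and the groups overlapped. Its nearest neighbour downstream, S100a5, had 4 reads in all, and S100a6 beyond it had at least 153 in each library. S100a4 (ENSMUSG00000001020; chr3:90603771-90606045) shares 302 of its 584 exonic bases (51.7%) with Gm42674, a gene on the same strand that begins inside S100a3 and whose transcript GENCODE marks as readthrough, and Gm42674 had 0 reads. The sources used here do not say how reads in both genes were counted, so the level of S100a4 is uncertain, and the part of this overlap was not tested. S100a3, known from hair follicles, had 14, 11 and 18 reads with vehicle and 7, 12 and 15 with NETs. It shares 2.5% of its exonic bases with Gm42674 and encloses S100a2 on the same strand. The other 8 members shared no exonic base with another annotated gene.

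The remaining comparison asked whether the members read in both groups differed with NETs. In the quasi-likelihood fit of edgeR, adjusted by Benjamini-Hochberg over all 13900 genes tested, 0 of the 7 members tested passed an adjusted p of 0.05, where 0.0% of all genes did. At an unadjusted p under 0.05 there was 1 of 7, S100a13, against 12.8% of all genes (6.72% higher and 6.06% lower). The filter on low counts kept 8 members. S100a9 was kept through its NETs libraries alone and is left out of these counts, and S100a4 and S100a8 were not kept. The median log2 fold change of the 7 was 0.04, with 4 above and 3 below 0, against a median of 0.00 over all genes tested.

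S100a13, a carrier in the release of FGF1 and interleukin-1α, was measured at 43.5, 47.4 and 43.3 CPM in vehicle replicates 1 to 3. In NETs replicates 1 to 3 it stood at 51.9, 51.6 and 56.0 CPM. All NETs libraries lay above all vehicle libraries, as in 7.68% of all genes tested (9.04% had all NETs libraries below), and the log2 fold change was 0.26 (SE 0.10; unadjusted p = 0.0223, edgeR adjusted p = 0.310). Without vehicle replicate 1 its unadjusted p by edgeR was 0.0835, and without NETs replicate 3 it was 0.0915. S100a1, its head-to-head neighbour and a regulator of calcium release channels in muscle, was read far less, at 3.86, 2.36 and 2.61 CPM with vehicle and 5.01, 3.64 and 4.32 CPM with NETs. Its groups overlapped, since vehicle replicate 1 lay above NETs replicate 2, and its log2 fold change of 0.56 (SE 0.30) had an edgeR adjusted p of 0.453. Neither gene shares exonic bases with another, but whether the counting used strand is not stated in the sources at hand.

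S100a11, a partner of annexin A1, went with neither group. It stood at 35.1, 33.5 and 39.1 CPM with vehicle and 33.8, 34.7 and 33.6 CPM with NETs, with its log2 fold change at −0.07 (SE 0.11; adjusted p by edgeR = 0.843). The FPKM ratio of S100a13 to S100a11, set out after the values were seen and not tested, was 0.886, 1.01 and 0.792 with vehicle (replicates 1 to 3) and 1.10, 1.06 and 1.19 with NETs. S100pbp, at 107, 114 and 114 CPM with vehicle and 105, 112 and 102 CPM with NETs, had a log2 fold change at −0.06 (SE 0.08; adjusted p by edgeR = 0.803), and its groups overlapped.

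S100a6, which encodes calcyclin, varied most among the abundant members. Its levels were 19.5, 9.77 and 18.2 CPM with vehicle (replicates 1 to 3) and 20.1, 20.3 and 12.9 CPM with NETs. Vehicle replicate 2 and NETs replicate 3 were the low libraries, the others lay close together, and the log2 fold change was 0.18 (SE 0.24; adjusted p by edgeR = 0.785). Without vehicle replicate 2 it was −0.06 (adjusted p = 0.960). S100a3 had a log2 fold change at −0.39 (SE 0.57; adjusted p by edgeR = 0.808) on the few reads given above.

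**Figure D3:**
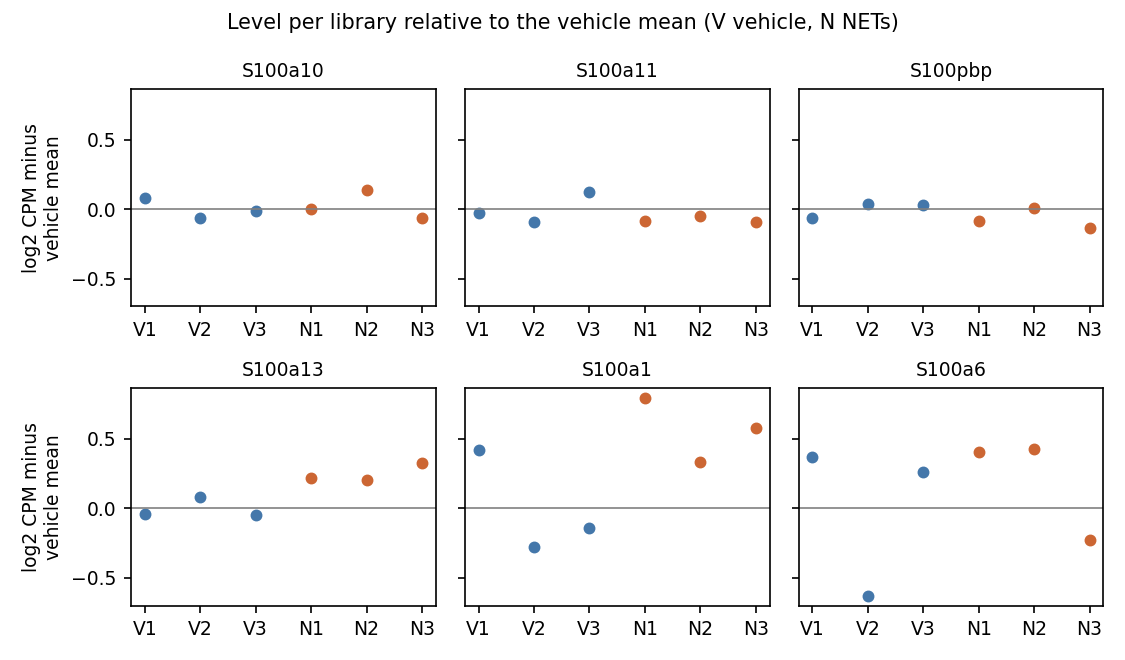
Level of 6 members in each library as log2 CPM minus the vehicle mean, V1 to V3 for vehicle and N1 to N3 for NETs replicates. All 3 NETs points of S100a13 lie above its vehicle points, whereas the other panels overlap and S100a6 is low in V2 and N3.

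S100a10 had 288, 261 and 271 CPM with vehicle (replicates 1 to 3) and 273, 301 and 261 CPM with NETs. The groups overlapped, with NETs replicate 2 highest and vehicle replicate 2 lowest, and the log2 fold change was 0.04 (SE 0.08; adjusted p by edgeR = 0.880). It was −0.01 without NETs replicate 2 (adjusted p = 0.963). Annexin A2, the protein S100a10 binds, is encoded by Anxa2, which averaged 74.5 CPM with vehicle and 82.9 with NETs (log2 fold change 0.17, SE 0.09; adjusted p by edgeR = 0.482). The log2 ratio of S100a10 to Anxa2 reads was 1.90, 1.76 and 1.97 with vehicle (replicates 1 to 3) and 1.84, 1.76 and 1.64 with NETs. It averaged 1.88 ± 0.108 with vehicle and 1.75 ± 0.103 with NETs (SD, n = 3 each), a difference of −0.13 with a two-sided exact permutation p of 0.3, where 3 against 3 libraries cannot go below 0.1. By the gene lengths of the deposited FPKM, S100a10 mRNA was 5.96 to 7.51 times as abundant as Anxa2 mRNA.

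By Pearson correlation of log2 CPM over the 6 libraries, among 10080 genes with a mean of 5 CPM or more, the genes most like S100a10 were Tpd52 (r = 0.986), the nucleolar gene Npm1 (0.980), Rint1 (0.974), Usp40 (0.971) and the Fanconi gene Fanci (0.968). With 6 points and so many genes compared, these values only describe the libraries. The libraries share their depth and scaling.

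Partners and receptors of S100 proteins were read from a list of 21 genes, of which 18 were tested. By edgeR 0 of the 18 passed the adjusted threshold, and at an unadjusted p under 0.05 there was 1, lower with NETs as were 6.06% of all genes (Hltf, a chromatin factor that the S100a10 and annexin A2 complex binds, named after its values were seen; log2 fold change −0.28, SE 0.11, adjusted p = 0.305). Their median log2 fold change was 0.00, with 8 above and 10 below 0.

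Among the intracellular partners, Myh9, the heavy chain of myosin IIA and a target of S100a4, was abundant at 1528 CPM with vehicle and 1674 with NETs (log2 fold change 0.14, SE 0.09). Ahnak, a giant scaffold that the S100a10 and annexin A2 complex anchors, had a log2 fold change at −0.29 (SE 0.16), and Cacybp, the calcyclin-binding protein, 0.15 (SE 0.10). Sugt1, a co-chaperone that S100a6 binds, stood at −0.01 (SE 0.09), Anxa11 at 0.09 (SE 0.12) and Anxa1, with 52 reads with vehicle and 75 with NETs, at 0.47 (SE 0.46). Anxa1 lay higher in every NETs library than in any vehicle library, the only one of the 21 to do so, where 7.68% of all genes tested did. The adjusted p of these 6 genes by edgeR ran from 0.480 for Ahnak to 0.983 for Sugt1. Ahnak was highest in vehicle replicate 1, at 2186 reads against 1094 to 1429 in the other libraries, and without that library its log2 fold change was −0.03.

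Receptors of released calprotectin were unequal in level. Ager, which encodes RAGE, averaged 12.7 CPM with vehicle and 11.6 with NETs (log2 fold change −0.12, SE 0.17; adjusted p by edgeR = 0.806). Tlr4 had 1, 0 and 1 reads with vehicle and 6, 0 and 0 with NETs. Bsg, encoding basigin, a receptor reported for S100A9, was the most abundant of these 3 at 260 CPM with vehicle and 283 with NETs (log2 fold change 0.14, SE 0.09; adjusted p by edgeR = 0.516). Emb encodes embigin, a receptor reported for calprotectin, and was named after its values were seen. It averaged 210 CPM with vehicle and 180 with NETs (log2 fold change −0.21, SE 0.10, adjusted p by edgeR = 0.397). Emb was the only one of the 21 to lie below vehicle in every NETs library, where 9.04% of all genes tested did.

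**Figure D4:**
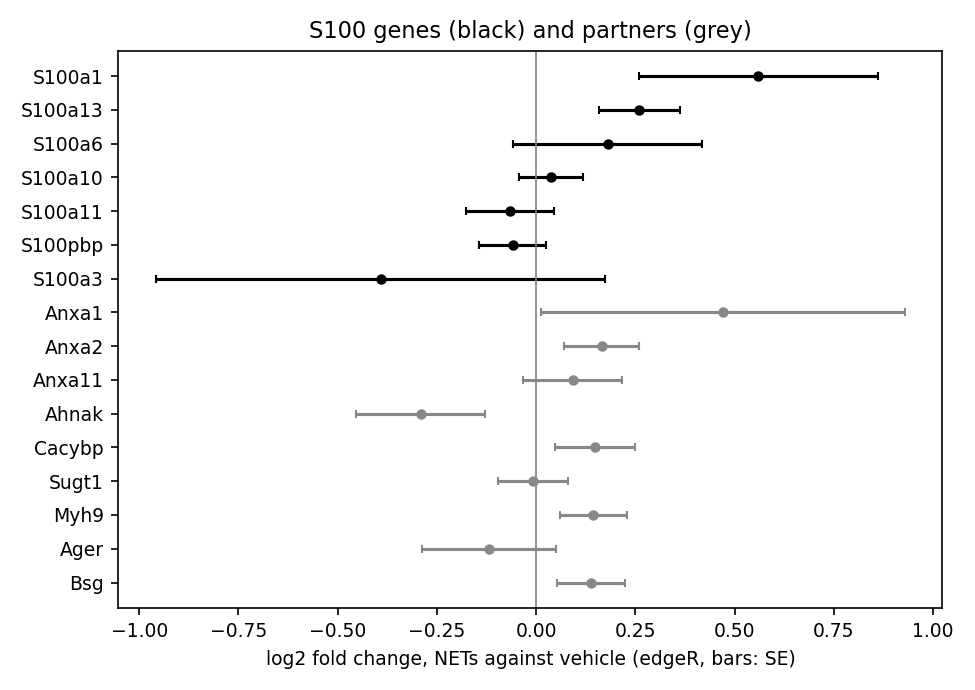
Log2 fold change of NETs against vehicle for the 7 tested members (black) and 9 tested partners (grey), with bars for the standard error from edgeR. None of the 16 passed an adjusted p of 0.05, and S100a3, S100a1 and Anxa1, the genes with the fewest reads here, have the widest bars.

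The cells carried T cell transcripts in both groups. Trac and Cd4 averaged 700 and 680 FPKM over the 6 libraries, and of 10 CD4 T cell markers 0 passed the edgeR threshold, adjusted or unadjusted; Cd3e stood at −0.18 (SE 0.10) and Cd28 at −0.13 (SE 0.08). The 9 B cell markers summed to 421 to 484 CPM with vehicle and 397 to 423 with NETs, mostly from Ighm, with Cd79b and Cd79a next. Of the 8 tested, 0 passed the adjusted threshold by edgeR. At an unadjusted p under 0.05, 0 were higher and 2 lower, where 6.72% and 6.06% of all genes were. The 7 CD8 T and NK cell markers summed to 29.2 to 31.4 CPM against 20.4 to 27.5, led by Cd8b1, Eomes and Klrd1. The 9 dendritic cell markers summed to 64.3 to 74.8 CPM against 55.2 to 61.9, led by Cd74, H2-Ab1 and H2-Aa. Both of these sums were lower in every NETs library than in any vehicle library. Of all genes tested, taken singly, 9.04% were, and no such share was computed for sums of genes. Of the 4 tested in each of these lists, 0 passed the edgeR threshold, adjusted or unadjusted. The 9 red cell and platelet markers summed to 5.36 to 6.86 CPM against 5.27 to 7.52, led by Itga2b, Hba-a1 and Hbb-bs.

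Genes that often accompany S100a4, S100a6, S100a10 and S100a11 in activated and migrating T cells were read from a list of 13, of which 0 passed the adjusted threshold by edgeR. At an unadjusted p under 0.05 there were 4, all higher with NETs, against 6.72% of all genes higher and 6.06% lower. Lgals3, which encodes galectin-3, had 86, 55 and 59 reads with vehicle and 180, 114 and 137 with NETs. Its log2 fold change was 1.07 (SE 0.26, adjusted p by edgeR = 0.223). The NETs libraries lay above all vehicle libraries, as in 7.68% of all genes tested. Capg, an actin-capping protein gene, stood at 0.36 (SE 0.10; adjusted p = 0.223). The most abundant genes of this list were Tmsb10 and Actg1, at 2918 and 1225 FPKM. Its median log2 fold change was 0.14, with 12 of 13 above 0. Over all genes tested the median was 0.00, with 6981 above and 6919 below 0. In 9 genes of the naive state the median was −0.14, with 7 below 0. Of these 9, 0 passed by edgeR and 2 were lower at an unadjusted p under 0.05 (6.06% of all genes), among them Il7r (−0.56, SE 0.14; adjusted p = 0.223). Tcf7 was the most abundant of the list, at 512 FPKM.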

How the data were processed

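RNA of mouse CD4+ T cells cultured for 72 h was sequenced in 3 NETs and 3 vehicle libraries, grouped and numbered by their titles. The authors deposited raw read counts per Ensembl gene and FPKM values; per the submitters' processing notes STAR, DESeq2 and build mm9 were used, with no version. The counting program and its strand setting were not stated there. Of 54409 table genes also in GENCODE M21 (GRCm38), 98.3% had the same coordinates. Library totals ranged from 15657622 to 18655997 counts.

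Counts of 13900 genes kept by filterByExpr were scaled by TMM and tested with edgeR 4.0.16 in R 4.3.3 (robust quasi-likelihood, two-sided, group as the only term), adjusted by Benjamini-Hochberg over all of them. CPM uses total counts. The procedure was tested on simulated data. Alternatives were other size factors, no filter, DESeq2 1.42.0, limma 3.58.1 (voom, and trend on log2(FPKM + 0.1) and log2(FPKM + 1)), the replicate block and leaving out each library. The members, the gene lists and the tests were chosen with earlier results of these data known. The genes named were all members and 10 partner genes. Of the other lists the 2 with the smallest p and the 2 with the highest FPKM were named, and of other cell types the 3 with most reads. Some genes that this rule names are not reported here. The nearest patterns to S100a9 and S100a10 were also named. The reads carry no molecular identifiers, so intervals and floors cover counting error only.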

Additional observations from a re-analysis of the deposited data

How the results depend on the processing

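Under the 13 alternatives run, 0 of the tested S100 members and 0 of the partner and receptor genes passed the adjusted threshold. S100a13 kept its direction in all 13, with log2 fold changes from 0.22 to 0.31 and adjusted p from 0.244 to 0.812. Its unadjusted p by edgeR was not under 0.05 without vehicle replicate 1 (0.0835) or without NETs replicate 3 (0.0915). S100a1 also kept its direction in all 13, with log2 fold changes from 0.43 to 0.79. Its unadjusted p, 0.083 by edgeR on all libraries, ranged from 0.0324 by limma-trend to 0.226 by edgeR without NETs replicate 1. Signs turned for S100a6 without vehicle replicate 2 (leave-one-out range −0.06311 to 0.3595), S100a10 without NETs replicate 2 (−0.01443 to 0.07605), and Sugt1 with no filter (0.0005532), without vehicle replicate 2 (0.01747) and without NETs replicate 3 (range −0.03322 to 0.03347); the cause was not tested. Over all genes the count past the threshold, 0 by edgeR (1776 at an unadjusted p under 0.05), was 322 with no filter, 129 by DESeq2, 1 by limma-voom, and 2 by limma-trend on FPKM at either pseudocount. Leaving out a library gave 0 to 405, with 405 without vehicle replicate 3, 1 without NETs replicate 1 and 2 without NETs replicate 2. Il7r passed by DESeq2 (adjusted p = 0.0152), and with Capg it passed with no filter and without vehicle replicate 3; Lgals3 passed with no filter (0.00931). The S100a9 bound ranged from 12.04 to 20.8 as each library was left out. The S100a10 to Anxa2 difference ranged from −0.19 to −0.07 over its 8 alternatives, and the ratio of FPKM gave the same difference since gene lengths cancel. With the replicate number as a block, 0 members and 0 genes passed, and that ratio differed by −0.13 (exact p = 0.5); the numbers do not pair the libraries, whose same-numbered deviations correlated at −0.03, −0.06 and −0.18, and no library correlated best with its own number. Depth limits S100a3, S100a4, S100a8 and S100a9, which had 77 reads or fewer each over all libraries.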

Other observations

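Outside the named members, S100 genes were nearly silent. Of 14 further S100 and fused S100 genes, such as S100b and filaggrin, 5 had no read, 9 had at least 1, and 0 passed the filter on low counts. S100a14 had 28, 0 and 3 reads with vehicle and 3, 4 and 7 with NETs, with 28 of its 45 reads in vehicle replicate 1. S100a2, found in the table after the lists were written, had 0, 6 and 0 reads with vehicle and 10, 5 and 2 with NETs.

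Other genes with EF-hand domains ranged from 0.572 FPKM (Gca) to 584 FPKM (Lcp1). All 22 listed were tested, 0 passed an adjusted p of 0.05 by edgeR and 4 were higher at an unadjusted p under 0.05 (6.72% of all genes), with a median log2 fold change of 0.09. The calmodulin gene Calm3 stood at 0.26 (SE 0.09; adjusted p = 0.276). Lcp1, which encodes the actin bundler L-plastin, and Calm2 were the most abundant of the list, at 584 and 331 FPKM, on either side of S100a10 at 467 FPKM over the 6 libraries.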
